A study of Mus musculus with 8 samples.

Results

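The response to JQ1 was measured by RNA sequencing in line 1.1, a B lymphoma cell line from an Eμ-Myc mouse of the C57BL/6 strain. JQ1 displaces BET bromodomain proteins from acetylated chromatin. Cells were kept for 2 h with 250 nM JQ1 or with the solvent DMSO. Of the 8 libraries of the series, the 4 labelled as line 1.1 were compared, 2 with JQ1 against 2 with DMSO. The other 4 come from line 1.2, a lymphoma line of the same mouse model treated in the same way. They entered the expression filter, the scaling and the estimate of the spread. They also served to compare the lines, with a test of where the response of line 1.1 differed. Both groups carry the Eμ-Myc transgene, a Myc gene driven by the immunoglobulin heavy chain enhancer, and the count of Myc adds up reads of the transgene and of the native gene. The labels call the cells early passage and give no clone or animal beyond the number of the line, so all values below describe 1 line. Whether replicates are separate cultures is not stated either, and the p-values measure only the spread between libraries, which may be technical. Of 43629 genes in the count table, 12413 passed the expression filter and were tested, and 12035 of these pass it in the 4 libraries of line 1.1 alone.

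BET proteins, BRD2 and BRD3 among them, read acetylated histones and help RNA polymerase II leave its pause near gene starts, in part through the kinase complex P-TEFb. P-TEFb is held inactive in a complex of 7SK RNA with HEXIM1, LARP7 and MEPCE. Lymphocyte identity genes often carry large clusters of enhancers rich in BET proteins, and BET inhibition is known for lowering such genes in B lineage tumours within hours.

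Gene reads came to between 10347453 and 13049877 per library of line 1.1, so that 3 reads correspond to 0.228 to 0.287 CPM (counts scaled to the size of the library). The first principal component of these libraries held 83.3% of their variance, with the JQ1 libraries on one side and the DMSO libraries on the other, and the second held 9.41% and separated the DMSO libraries from each other. Among 9335 genes averaging 5 CPM or more, 44 differed at least 1.5-fold between the DMSO libraries, 17 between the JQ1 libraries and 1382 between the group means. The markers of the labelled B lineage were present. Cd79b was at 405 and 391 CPM in DMSO, and Ighm, Cd79a, Ebf1, Pax5 and Blnk were all expressed, while the mature B cell gene Ms4a1 had only 13 to 19 reads. Of 14 T cell markers 9 had no read in any of these 4 libraries, Cd3e, Cd4, Cd8a and Trac among them, and the list summed to 10.3 to 27.3 CPM, nearly all from Cd2 and Cd6. The 10 NK cell markers summed to at most 0.861 CPM, the 8 erythroid markers to at most 0.669 CPM and the 14 myeloid markers to 9.19 to 15.04 CPM, with Lyz2, S100a8 and S100a9 at 0. The 11 stromal and endothelial markers summed to 383 to 497 CPM, nearly all from Vim (333 to 398 CPM) and Pecam1. The sources used here do not give the strand setting of the counting, and Slc25a18, Clec2i, Slamf6, Dtx3l, Polr2i, Nelfa, Nelfcd, Mxd3, Junb, Dusp1, E2f5, Hdac7, Nr1d1, Mrpl19, Mrps7, Aimp2, Ccne2, Ccnyl1 and Ankrd37, described further on, overlap another gene on the opposite strand whose level is at least 20% of their own, so that reads of the pair cannot be told apart. On the same strand Irf9 (mean 12.4 CPM) overlaps Rnf31 (25.4 CPM). The small RNA models Gm26397 (3.97 CPM) and Gm24270 (52.8 CPM) likewise overlap Tomm20 (310 CPM) and Peak1 (46.5 CPM). Reads of these pairs could be shared.

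JQ1 moved about as many genes up as down within 2 h, and most of them by little. In edgeR's quasi-likelihood test with Benjamini-Hochberg adjustment over all genes, 6334 of 12413 genes passed an adjusted p of 0.05 (51%). Of these, 3096 rose (24.9% of the genes tested) and 3238 fell (26.1%). The median absolute log2 change was 0.27 over all genes and 0.44 over the genes that passed, and 3952 of the genes that passed changed by less than 1.5-fold. Large changes were more often falls: at least 2-fold rises numbered 472 (3.8%) and falls 739 (5.95%). At least 4-fold rises numbered 119 and falls 167. At 8-fold the numbers were 41 and 40. The JQ1 libraries did not overlap with the DMSO libraries for 73.3% of all genes tested and for 6318 of the 6334 that passed. The median log2 change over all genes was 0.0078, and it lay between -0.033 and 0.011 under every other scaling, filter, fit or left-out library that was tried. Counts are relative to each library, and a change in the total mRNA per cell would not show in them. In these bulk libraries, fewer cells of a type and less RNA per cell cannot be told apart. Tested against a fold change of 1.5 instead of no change, 471 genes were higher and 713 lower. In the gene groups that follow, rose and fell mean past the adjusted p of 0.05, and the share of all genes that did so is the 24.9% and 26.1% given here. Values of a gene in all libraries are given as first and second DMSO library, then first and second JQ1 library, and the groups did not overlap for any gene so given unless the text says so. The few members that moved against the rest of a group, and counts of 5 or fewer that are spelled out, were named after their values were seen.

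**Figure D1:**
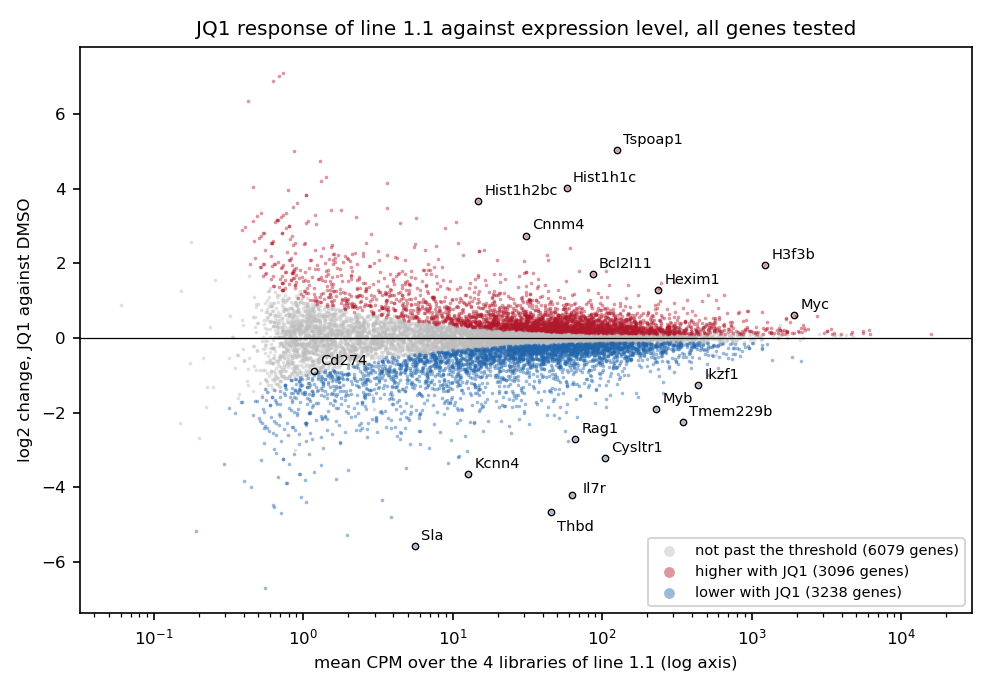
Each point is a gene of line 1.1, with its mean CPM over the 4 libraries on a log axis and its log2 change with JQ1 against DMSO. The 3096 genes that rose and the 3238 that fell spread on both sides of 0 at every level, and the labelled genes range from Sla at -5.58 to Tspoap1 at 5.03.

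Among genes averaging 5 CPM or more, the strongest rise was that of Tspoap1 (chr11:87760541-87785928 in GRCm38), which encodes a binding partner of the mitochondrial translocator protein. It was at 6.99 and 8.03 CPM in DMSO and 252 and 237 CPM in JQ1, a log2 change of 5.03 ± 0.087 (SE, edgeR adjusted p = 8.21e-23). The linker histone gene Hist1h1c (chr13:23738808-23740367) followed, at 6.0001 and 7.65 CPM in DMSO and 116 and 102 CPM in JQ1, a log2 change of 4.02 ± 0.11 (SE, edgeR adjusted p = 1.19e-18). For both genes the libraries of a group lay close together and the JQ1 libraries far above the DMSO libraries. The core histone genes Hist1h2bc (3.66) and Hist1h2bl (2.52) rose as well. Counting could split reads among near-identical histone copies, so the value of a given copy is uncertain.

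Several surface and transport proteins came up from low levels. Mpzl1, a glycoprotein of the immunoglobulin superfamily, went from 1.29 and 0.861 to 10.99 and 9.66 CPM. Fzd5, a WNT receptor, went from 2.43 and 1.91 to 19.6 and 18.3 CPM. Cnnm4, a magnesium transporter, went from 8.13 and 7.94 to 53.4 and 54.4 CPM. The log2 changes of these 3 genes were 3.22, 3.10 and 2.74. In each case the JQ1 libraries lay close together and well above the DMSO libraries. Sil1, the nucleotide exchange factor of the endoplasmic reticulum chaperone BiP, started from a higher level and went from 20.5 and 18.1 to 104 and 103 CPM, a log2 change of 2.41 ± 0.075 (SE, edgeR adjusted p = 6.69e-18). The other genes among the 12 with the largest rise were the mitochondrial glutamate carrier gene Slc25a18 (2.93), the lectin gene Clec2i (2.54), the autophagy gene Trp53inp2 (2.46) and the ubiquitin ligase gene Trim36 (2.42).

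The strongest fall was that of Sla (chr15:66780819-66831829), an adaptor that dampens antigen receptor signalling. It was at 10.3 and 11.6 CPM in DMSO and 0.165 and 0.274 CPM in JQ1. With 5 reads in the JQ1 libraries against 257 in the DMSO libraries, its level with JQ1 was 1.94% of that with DMSO (95% exact interval 0.623% to 4.58%, for counting error only), and the fitted log2 change was -5.58 ± 0.34 (SE). Thbd (chr2:148404466-148408188), which encodes thrombomodulin, was at 94.5 and 80.8 CPM in DMSO and 2.97 and 4.01 CPM in JQ1, a log2 change of -4.66 ± 0.12 (SE, edgeR adjusted p = 2.04e-19). Both genes were moderately expressed in each DMSO library and close to silent in each JQ1 library.

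Il7r (chr15:9505788-9530176), the interleukin-7 receptor on which early B cells depend, was at 115 and 124 CPM in DMSO and 6.61 and 6.38 CPM in JQ1, a log2 change of -4.20 ± 0.092 (SE, edgeR adjusted p = 6.82e-21). Cysltr1, a leukotriene receptor, was higher still without drug and went from 190.1 and 186 to 19.7 and 20.9 CPM. The calcium-activated potassium channel gene Kcnn4 went from 23.5 and 23.4 to 1.98 and 1.73 CPM. Il2ra, the alpha chain of the interleukin-2 receptor, went from 23.7 and 21.04 to 2.89 and 2.55 CPM. For each of these 4 surface proteins the replicates lay close together, and little of the transcript was left in either JQ1 library. The rest of the 12 genes with the largest fall were the R-spondin receptor gene Lgr5 (-3.36), Kctd14 (-3.18), the histone deacetylase gene Hdac9 (-3.17), the lysophospholipid receptor gene P2ry10b (-2.94), Fam169b (-2.84) and Tspyl3 (-2.83).

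**Figure D2:**
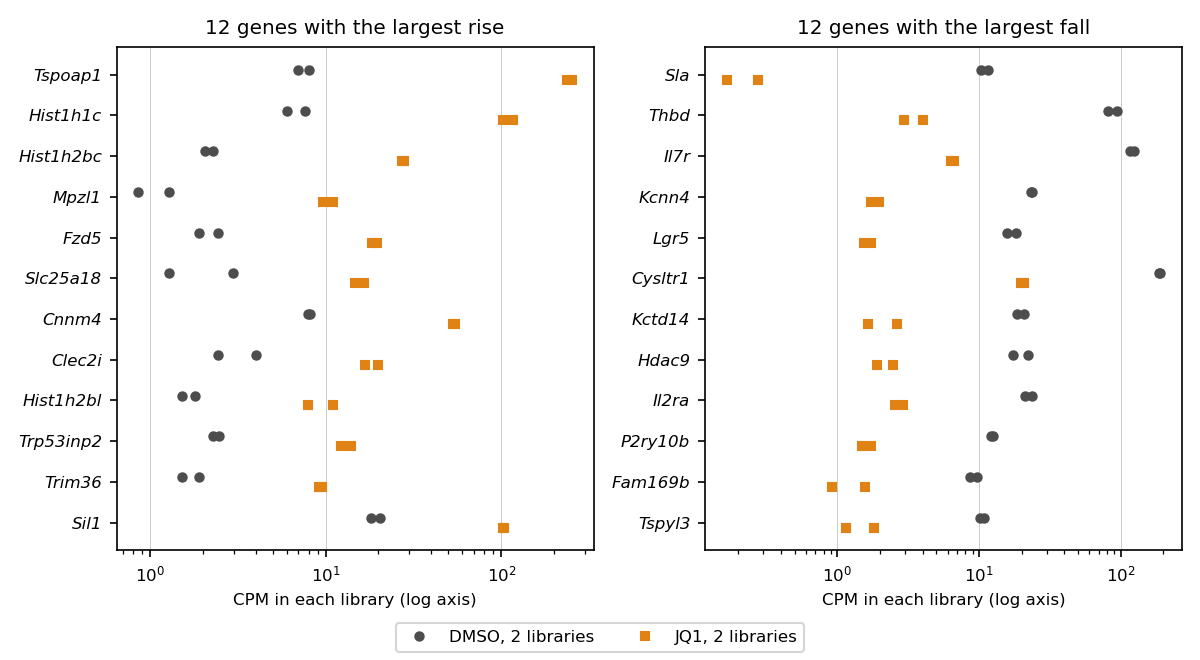
Points give the CPM of each library of line 1.1 on a log axis, circles for DMSO and squares for JQ1, for the 12 strongest risers and the 12 strongest fallers. The libraries of a group lie close together, and the widest gap between groups is from 6.99 and 8.03 CPM to 252 and 237 CPM for Tspoap1 and from 10.3 and 11.6 CPM to 0.165 and 0.274 CPM for Sla.

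Promoters of leading genes are shown because the share of promoters with a CCAAT box, and the number of CpG dinucleotides, differed between genes that rose and genes that fell. They are the 250 bases before the start of the 2 strongest risers and the 2 strongest fallers that RefSeq's promoter table for GRCm38.p6 holds with a start within 100 bases of the GENCODE start, written 5′ to 3′ on the strand of the gene. Hist1h1c (named H1f2 in RefSeq) is at chr13:23738557-23738806 on the plus strand, Mpzl1 at chr1:165634542-165634791 on the minus strand, Kcnn4 at chr7:24370013-24370262 on the plus strand and Hdac9 at chr12:34917096-34917345 on the minus strand. Capitals mark matches on either strand to the motifs searched, which were the TATA box core TATAAA, the CCAAT box CCAAT, the GC box GGGCGG, the E-box CACGTG and the AP-1 site TGANTCA.
Hist1h1c: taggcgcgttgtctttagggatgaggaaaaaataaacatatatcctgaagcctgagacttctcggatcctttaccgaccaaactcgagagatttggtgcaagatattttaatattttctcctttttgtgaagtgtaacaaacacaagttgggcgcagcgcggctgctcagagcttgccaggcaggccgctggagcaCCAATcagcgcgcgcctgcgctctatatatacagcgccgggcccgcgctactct
Mpzl1: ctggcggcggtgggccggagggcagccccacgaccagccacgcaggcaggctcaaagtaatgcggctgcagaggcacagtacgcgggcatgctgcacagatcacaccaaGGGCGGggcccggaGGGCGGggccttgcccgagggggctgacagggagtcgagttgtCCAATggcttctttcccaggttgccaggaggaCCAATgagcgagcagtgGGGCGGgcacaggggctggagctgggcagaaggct
Kcnn4: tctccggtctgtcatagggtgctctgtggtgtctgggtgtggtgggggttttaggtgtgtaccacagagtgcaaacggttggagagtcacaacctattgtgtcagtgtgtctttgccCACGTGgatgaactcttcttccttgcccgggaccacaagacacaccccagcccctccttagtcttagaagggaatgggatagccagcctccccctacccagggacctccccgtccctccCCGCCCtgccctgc
Hdac9: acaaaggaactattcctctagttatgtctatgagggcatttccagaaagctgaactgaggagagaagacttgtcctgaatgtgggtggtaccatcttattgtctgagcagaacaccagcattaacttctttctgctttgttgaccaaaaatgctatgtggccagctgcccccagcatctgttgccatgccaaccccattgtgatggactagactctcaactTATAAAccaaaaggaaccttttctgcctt
Both risers hold a CCAAT box, which starts 54 bases before the start site in Hist1h1c and 84 and 52 bases before it in Mpzl1, and Mpzl1 also has 3 GC boxes. Neither faller holds a CCAAT box. Kcnn4 has a GC box and an E-box, and Hdac9 a TATA box core that begins 29 bases before the start. CpG dinucleotides number 17 and 15 in the promoters of the risers Hist1h1c and Mpzl1, and 6 and 0 in those of the fallers Kcnn4 and Hdac9. These counts are over 250 bases, and the medians given further on are over 300. Those medians are 22 over all matched genes, 21 over genes at least 2-fold higher and 11 over genes at least 2-fold lower. A match is a description of these letters and not evidence that a factor binds.

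Counted in transcripts rather than in folds, the largest gains and losses fell on other genes. The genes that rose summed to 371616 CPM in DMSO and 458078 CPM in JQ1, and the genes that fell to 255387 and 193478 CPM (means of 2 libraries). H3f3b, which encodes the replacement histone H3.3, gained more CPM than any other gene that rose, from 496 and 516 to 2019 and 1910 CPM. The other 5 of the 6 largest gains were Myc, the elongation factor gene Eef2 (0.22), the cytochrome oxidase gene mt-Co1 of the mitochondrial genome and the gene models Gm26880 and Gm37416. Gm26880 is a lincRNA model on chromosome 4 that went from 2070 and 2259 to 3290 and 3257 CPM, and Gm37416 a model with 1 exon on chromosome 2 that went from 1451 and 1744 to 2411 and 2373 CPM. The gain of mt-Co1 was large in CPM but only 0.097 on the log2 scale, and it did not pass without the second JQ1 library (edgeR adjusted p = 0.173), with library totals as the scale (0.186), with upper quartile scaling (0.0592), in line 1.1 alone (0.125) or in DESeq2 (0.0549).

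The largest loss in CPM was that of the lincRNA model Gm26809 on chromosome 6, from 2719 and 2460 to 1720 and 1678 CPM. Cd24a, a small surface glycoprotein of developing B cells, went from 2151 and 2232 to 1525 and 1568 CPM. The secreted glycoprotein gene Reln (-0.59), Tmem229b, the lymphoid transcription factor gene Ikzf1 and the scaffold gene Akap12 (-0.99) made up the rest of the 6 largest losses. Tmem229b changed most of these in fold, from 575 and 572 to 110.5 and 129 CPM, a log2 change of -2.26 ± 0.056 (SE, edgeR adjusted p = 6.86e-20).

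Among the targets of JQ1 and the P-TEFb complex, Brd2 and Hexim1 rose at least 2-fold while Brd3 did not pass. Of 15 tested genes of this list, 7 rose, 2 fell and 6 did not pass, with a median log2 change of 0.14 (0.0078 over all genes). Hexim1, whose product inhibits P-TEFb and which is a common marker of BET inhibition, was at 138 and 139 CPM in DMSO and 344 and 329 CPM in JQ1, a log2 change of 1.28 ± 0.048 (SE, edgeR adjusted p = 1.99e-16). Brd2 was at 370.3 and 395 CPM in DMSO and 790.4 and 769 CPM in JQ1, a log2 change of 1.03 ± 0.047 (SE, edgeR adjusted p = 7.35e-15). Both JQ1 libraries were well above both DMSO libraries for these genes. Brd3 was at 137 and 150.4 CPM in DMSO and 136 and 142 CPM in JQ1, with overlapping groups and an edgeR adjusted p of 0.544. The 7SK methylase gene Mepce and the cyclin gene Ccnt1 of P-TEFb rose by 0.88 and 0.64. Hexim2, the paralogue of Hexim1, fell by 1.6 and Jmjd6 by 0.26. Without the second JQ1 library 4 genes of the list rose.

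Elongation factors rose more often than they fell. Of 26 tested, 14 rose and 6 fell (median 0.19). The PAF1 complex genes Paf1 and Ctr9 rose by 0.78 and 0.74, and Aff4, the scaffold of the super elongation complex, went from 102 and 101 to 163 and 163 CPM. The fallers include 2 subunits of the pausing factor NELF, Nelfcd (-0.43) and Nelfa (-0.37), and Aff1 (-0.38), a relative of Aff4. Named after their values were seen, these 3 stood against the lean of the list.

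The gene of the largest RNA polymerase II subunit, Polr2a, was at 387 and 432 CPM in DMSO and 891 and 917 CPM in JQ1, a log2 change of 1.14 ± 0.049 (SE, edgeR adjusted p = 1.93e-15). The other subunits changed less. In all, 3 of 13 rose, 3 fell and 7 did not pass (median 0.050). Besides Polr2a, Polr2l and Polr2b rose by 0.33 and 0.25, while Polr2i, Polr2m and Polr2c fell by 0.63, 0.56 and 0.19. Among 32 Mediator subunits 5 rose (2 without the first JQ1 library), 6 fell and 21 did not pass. Med1, through which Mediator meets nuclear receptors, rose by 0.60, and Med31, Med4, Med13l and Med25 by 0.58, 0.22, 0.21 and 0.15, while Med12, of the Mediator kinase module, and Med8 fell by 0.49 and 0.56. In DESeq2 the changes of Polr2c, Med4 and Med25 did not pass (adjusted p = 0.121, 0.0832 and 0.198). Med25 also did not pass with library totals as the scale (edgeR adjusted p = 0.154) or in line 1.1 alone (0.0937). Polr2c did not pass without the first DMSO library or either JQ1 library (edgeR adjusted p = 0.194, 0.0636 and 0.158), Med31 without the first JQ1 library (0.0909), Med4 without the first JQ1 library (0.108) and Med25 without the first DMSO library or either JQ1 library (0.315, 0.287 and 0.0644).

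Myc transcripts were more abundant with JQ1, at 1428 and 1640 CPM in DMSO and 2355 and 2318 CPM in JQ1, a log2 change of 0.61 ± 0.051 (SE, edgeR adjusted p = 4.80e-10). This count includes the transgene. Of 11 tested genes of the Max network, which are Myc and the partners and antagonists of its product, 6 rose and none fell (median 0.48), while without the first DMSO library 3 fell and without the first JQ1 library 1 fell. The antagonist gene Mxd1 went from 6.91 and 6.98 to 22.6 and 22.2 CPM, a log2 change of 1.69. The antagonist genes Mxd3, Mxd4 and Mnt rose by 0.79, 0.48 and 0.52, and Mlxip, whose product pairs with MLX, by 0.62. A list of 59 genes known as MYC targets leaned the other way by little, with 9 up, 27 down and a median of -0.092. Examples are the nucleolar genes Mybbp1a (-0.47), Wdr43 (-0.43) and Ppan (-0.69). None of the 59 passed with a change of 2-fold or more. Their median shift is close to the spread of the replicates: the log2 ratio of the second to the first DMSO library had a median of -0.089.

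Genes of early B cell development had the lowest median of the lists with at least 5 genes tested. The lists were chosen with earlier results of these data known. This list held 13 genes. Low genes could pass the filter through the DMSO libraries alone, so its median describes those that passed. Of 6 tested, 5 fell and none rose, with a median log2 change of -1.83, and the same 5 fell without each library of line 1.1 in turn. Besides Il7r, the recombinase genes Rag1 and Rag2, which cut immunoglobulin genes for their assembly, fell together. Rag1 went from 114 and 116 to 17.8 and 17.05 CPM. Rag2 went from 25.1 and 29.1 to 4.21 and 5.38 CPM. These are log2 changes of -2.72 and -2.49, and both JQ1 libraries lay far below both DMSO libraries. Cd93, a receptor of immature B cells, went from 42.9 and 43.03 to 18.5 and 19.97 CPM, and Vpreb3 fell by 0.45. The member that did not pass was the cytokine receptor gene Flt3 (0.17).

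Most transcription factors of B cells fell, with 4 exceptions. Of 22 tested, 17 fell, 4 rose and Sox4 did not pass (median -0.56). Myb, a regulator of lymphoid progenitors, was at 341 and 388 CPM in DMSO and 93.3 and 101 CPM in JQ1, a log2 change of -1.91 ± 0.06 (SE, edgeR adjusted p = 6.75e-18). Ikzf1, which sets the lymphoid fate, went from 638 and 597 to 250.3 and 264 CPM. Irf4, a regulator of plasma cell and light chain programmes, went from 339.7 and 372 to 162 and 154 CPM. Both were more than 2-fold lower, with log2 changes of -1.26 and -1.17. Mef2c, which acts downstream of the antigen receptor, fell by 1.54. Pax5, the factor that keeps B cell identity, was at 100.2 and 110.4 CPM in DMSO and 54.7 and 61.3 CPM in JQ1, a smaller log2 change of -0.86 ± 0.066 (SE, edgeR adjusted p = 1.07e-10). The 4 that rose were Irf8 (0.64), Id3 (0.63), Foxo1 (0.48) and Spib (0.43).

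Most genes of B cell receptor signalling fell, while the immunoglobulin heavy chain did not. Of 27 tested genes 22 fell, 2 rose and 3 did not pass (median -0.61). Cd22, an inhibitory lectin, was at 135 and 142 CPM in DMSO and 39.9 and 43.4 CPM in JQ1, a log2 change of -1.73 ± 0.063 (SE, edgeR adjusted p = 1.32e-16). The inhibitory Fc receptor gene Fcgr2b went from 194 and 205 to 72.4 and 70.8 CPM. Fcrla, an Fc receptor-like protein inside the cell, went from 379 and 376 to 136 and 135 CPM. The adaptor gene Blnk fell by 1.36 and Cd79b, which carries the signal of the receptor, by 0.91.

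Ighm, the heavy chain itself, went from 1405 and 1444 to 1555 and 1595 CPM, a log2 change of 0.14 (edgeR adjusted p = 0.00512), which did not pass without the second JQ1 library (0.0555). It was the riser among the 10 B lineage markers, of which 8 fell. The risers of the receptor list were Cd81 (0.58), a tetraspanin of the cell surface, and Prkcb (0.18), a kinase of the receptor pathway, but only 1 gene of the list rose without the first DMSO library or without either JQ1 library. All 5 tested plasma cell markers also fell (median -0.69), namely Slamf7, Tnfrsf13b (-1.13), Sdc1 (-0.69), Mzb1 (-0.33) and Xbp1 (-0.29). In DESeq2 Prkcb and Xbp1 did not pass (adjusted p = 0.193 and 0.133). Prkcb also did not pass with library totals (edgeR adjusted p = 0.116), with upper quartile scaling (0.0625) or in line 1.1 alone (0.0683). Prkcb did not pass without either DMSO library or either JQ1 library (edgeR adjusted p = 0.0636, 0.101, 0.161 and 0.0987) and Xbp1 without the first DMSO library or either JQ1 library (0.133, 0.0671 and 0.101).

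Receptors through which lymphocytes sense lipids and purines were among the lists with the lowest medians. The list held 24 genes, and low genes could pass the filter through the DMSO libraries alone. Of 13 tested, 10 fell, 8 of them at least 2-fold, and 1 rose (median -1.55). Their summed level was 345 and 357 CPM in DMSO and 93.6 and 95.3 CPM in JQ1. S1pr1, a sphingosine-1-phosphate receptor that guides lymphocyte egress, went from 28.3 and 31.2 to 8.59 and 9.66 CPM. S1pr4, of the same family, went from 35.5 and 41.1 to 12.7 and 13.2 CPM. Both fell to a similar degree (-1.70 and -1.55). The riser was the ATP-gated channel gene P2rx4 (0.64).

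Cytokine and chemokine receptors split by member. Of 16 tested 9 fell and 5 rose (median -0.37), and 3 rose without the first DMSO library or without either JQ1 library. Ccr7, which draws lymphocytes to lymph nodes, was at 44.1 and 43.2 CPM in DMSO and 13.7 and 13.9 CPM in JQ1, a log2 change of -1.66 ± 0.092 (SE, edgeR adjusted p = 2.51e-13). Il6ra fell by 1.41. In the other direction, the transforming growth factor beta receptor gene Tgfbr1 went from 34.3 and 33.8 to 63.5 and 67.2 CPM, and Il4ra, Ifngr1, Ifnar1 and Il17ra rose by 0.40, 0.38, 0.28 and 0.17. Il4ra did not pass without the first JQ1 library (edgeR adjusted p = 0.0551), Ifnar1 without the first DMSO library or the second JQ1 library (0.146 and 0.188) and Il17ra without the first DMSO library or either JQ1 library (0.143, 0.0525 and 0.0858). Adhesion and homing molecules gave 8 falls and 2 rises among 14 tested (median -0.45). The integrin gene Itga4 was at 241 and 252 CPM in DMSO and 89.4 and 88.1 CPM in JQ1, a log2 change of -1.47 ± 0.053 (SE, edgeR adjusted p = 9.20e-17). The selectin ligand gene Selplg and the adhesion molecule gene Pecam1 fell by 1.23 and 1.98. The risers were the junction protein gene Jam3 (2.19) and the integrin ligand gene Icam1 (0.79).

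The series title names PD-L1, the inhibitory ligand encoded by Cd274 (chr19:29367455-29388095). In line 1.1 Cd274 was at 1.44 and 1.63 CPM in DMSO and 0.991 and 0.638 CPM in JQ1, from 19 and 17 reads in DMSO and 12 and 7 in JQ1. Both JQ1 libraries were lower than both DMSO libraries, but the log2 change of -0.88 ± 0.4 (SE) did not pass the test (edgeR adjusted p = 0.0727), and a change was not detectable at this depth. Other checkpoint and costimulatory molecules had more reads. Of 13 tested among 26 listed, Cd274 included, 8 fell and none rose, with a median of -0.88. Here too low genes could pass the filter through the DMSO libraries alone. Btla, an inhibitory receptor, went from 16.4 and 17.6 to 2.64 and 2.46 CPM. Cd47, which protects cells from macrophages, went from 153 and 147 to 77.7 and 79.05 CPM. Their log2 changes were -2.72 and -0.94, and Lgals9, the galectin-9 gene, fell by 0.49.

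Of 8 SLAM family receptors, which lymphocytes use to recognise each other, 7 fell and none rose (median -1.22). Slamf7 went from 155 and 175 to 41.8 and 50.3 CPM. Slamf6 went from 66.5 and 66.1 to 25.4 and 23.6 CPM. Both were at least 2-fold lower in each JQ1 library, and Cd48 and Ly9 fell by 1.01 and 0.58. Slamf1 did not pass (-0.14).

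Genes of MHC class I presentation moved in both directions. Of 21 MHC class I genes 8 fell and 6 rose. The peptide transporter gene Tap2 went from 30 and 32.3 to 14.7 and 16.05 CPM. The trimming peptidase gene Erap1 went from 122 and 110.3 to 76.4 and 72.03 CPM. These are log2 changes of -1.02 and -0.65, and the immunoproteasome genes Psmb8 and Psmb10 fell by 0.31 and 0.54. In the other direction, the class I heavy chain gene H2-K1 was at 123 and 129 CPM in DMSO and 189 and 176 CPM in JQ1, a log2 change of 0.54 ± 0.052 (SE, edgeR adjusted p = 4.48e-09). The heavy chain gene H2-D1 rose by 0.41, the light chain gene B2m by 0.17 and the loading chaperone gene Calr by 0.49. B2m did not pass without the second JQ1 library (edgeR adjusted p = 0.0592). Class I heavy chain genes resemble each other, so reads could be shared among them.

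Of 10 class II genes 5 fell and none rose (median -0.36), and 3 fell without either JQ1 library. The regulator gene Rfx5 fell by 1.09, H2-Ob by 0.52, the protease gene Ctss by 0.40 and the invariant chain gene Cd74 by 0.29. Cd74 did not pass without the first DMSO library or either JQ1 library (edgeR adjusted p = 0.464, 0.119 and 0.104). H2-Ab1 was low, from 15.1 and 18.1 to 13.4 and 12.9 CPM, and its change of -0.33 did not pass without the second DMSO library (edgeR adjusted p = 0.217), without either JQ1 library (0.0789 and 0.123) or in DESeq2 (0.133). Of 18 interferon response genes 10 fell, 7 of them at least 2-fold, and 2 rose (median -0.45). Parp14 went from 22.3 and 23.6 to 4.71 and 4.83 CPM. Dtx3l, a ubiquitin ligase gene on the same chromosome, went from 31.6 and 34.4 to 9.17 and 9.85 CPM. Their log2 changes were -2.26 and -1.79. The risers were Stat2 (0.43) and Irf9 (0.35), whose products act together, and 1 gene of the list rose without the first DMSO library. Irf9 did not pass without the first DMSO library or the second JQ1 library (edgeR adjusted p = 0.13 and 0.182).

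Sialyltransferases, which cap surface glycans, gave 6 falls and 2 rises among 11 (median -0.68). St6gal1, which makes the ligand of CD22, went from 90.6 and 86.1 to 38.5 and 40.2 CPM, a log2 change of -1.17. St8sia4 fell by 1.21. The risers were St6galnac3 (1.67) and St3gal3 (0.39), and 1 gene of the list rose without the first JQ1 library. St3gal3 did not pass without the first JQ1 library (edgeR adjusted p = 0.0731).

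A few markers of other cell types moved as well, most of them at low levels. Cd2 and Cd6, the T cell markers that passed the filter, fell by 1.18 and 1.43, in libraries with no read of Cd3e. Among myeloid markers, Cd68, a lysosomal protein, went from 2.35 and 3.25 to 11.2 and 10.7 CPM, a log2 change of 1.99. Mrc1 went from 3.49 and 4.69 to 1.16 and 1.09 CPM, a log2 change of -1.83. Fcgr3, an Fc receptor gene, fell by 1.05. Fcgr3 did not pass without the second DMSO library or the first JQ1 library (edgeR adjusted p = 0.104 and 0.212). Of 3 stromal and endothelial markers that passed the filter, Pecam1, given above, and Cdh5 (-3.71) fell, Cdh5 from a level of 1.37 and 1.15 CPM in DMSO. Pecam1 was not low and went from 85.9 and 97.5 to 22.3 and 24.2 CPM. Whether other cells contributed was not tested.

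Histone genes made up the list with the highest median. The count table holds 66 clustered histone genes. Of these, 19 passed the filter, and among them 13 rose and none fell. Their median log2 change was 1.53 and their summed level was 52.3 and 58.8 CPM in DMSO and 251 and 233 CPM in JQ1. Low genes could pass the filter through the JQ1 libraries alone, so this median describes those that passed and not all 66. Hist2h2be was at 10.6 and 11.9 CPM in DMSO and 32.7 and 34.7 CPM in JQ1, a log2 change of 1.59 ± 0.097 (SE, edgeR adjusted p = 1.83e-12).

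A list of replacement histones and of linker histones with genes outside the clusters, many of them made throughout the cell cycle, gave 7 rises and 2 falls among 11. H3f3b, given above, had a log2 change of 1.96 ± 0.045 (SE, edgeR adjusted p = 1.31e-20). H3f3a, which encodes the same protein, went from 469 and 479 to 636 and 587 CPM and rose by 0.37, so that genes at like levels without drug were far apart with it. The linker histone gene H1f0 went from 30.2 and 32.7 to 109.7 and 105 CPM. The DNA damage histone gene H2afx went from 163 and 164 to 311 and 308 CPM. The fallers were H2afj (-0.29) and H2afy (-0.27), and 1 gene of the list fell without the second JQ1 library. H2afj did not pass without the second JQ1 library (edgeR adjusted p = 0.0644). DNA replication genes did not rise with the histones: 7 rose (4 without the second JQ1 library) and 15 fell among 46, with a median of -0.047. Cdc6 (0.54) and Rrm2 (0.47) were higher and Mcm3 (-0.51) and Tk1 (-0.74) lower.

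Early response genes and antiproliferative genes rose. Of 18 immediate early genes 13 rose, 7 of them at least 2-fold, and 1 fell (median 0.64). The AP-1 subunit gene Jun went from 12 and 16.7 to 49.4 and 46.2 CPM. Jund, also of AP-1, went from 121 and 139 to 368 and 356 CPM. Each JQ1 library was well above each DMSO library for both genes, although the DMSO libraries of Jun lay apart. Junb rose by 0.94 and Ier5 by 1.03. The faller was the nuclear receptor gene Nr4a1 (-0.62). Of 5 BTG and TOB genes, whose products restrain proliferation and promote mRNA decay, 4 rose and Btg3 did not pass. Tob1 was at 13.8 and 16.5 CPM in DMSO and 69.7 and 71.2 CPM in JQ1, a log2 change of 2.23 ± 0.084 (SE, edgeR adjusted p = 2.06e-16). Btg1 went from 58.7 and 54.3 to 129 and 131 CPM. Btg2 and Tob2 rose by 0.85 and 0.57.

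Of 11 feedback inhibitors of MAP kinase pathways 8 rose and 2 fell (median 0.50). The phosphatase genes Dusp1 and Dusp2 rose by 1.30 and 0.52, whereas the phosphatase gene Dusp5 and Spred2 fell by 0.62 and 0.52. Gadd45b, a stress sensor gene, went from 3.87 and 4.49 to 20.2 and 18.4 CPM. It belongs to a list of p53 targets that as a whole gave 11 rises and 6 falls among 27 (3 falls without either JQ1 library), with a median of 0.032 that changed sign under other settings.

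Endoplasmic reticulum chaperones, which fold secreted proteins, rose more often than they fell. Of 25 endoplasmic reticulum chaperones 15 rose and Sdf2l1 fell (-0.25), with a median of 0.17. The fall of Sdf2l1 did not pass in line 1.1 alone (edgeR adjusted p = 0.054), in limma-voom (adjusted p = 0.0516) or in DESeq2 (adjusted p = 0.15). Sdf2l1 did not pass without the first DMSO library or either JQ1 library (edgeR adjusted p = 0.853, 0.0721 and 0.201). Hspa5, which encodes BiP, was at 328 and 292 CPM in DMSO and 631 and 612 CPM in JQ1, a log2 change of 1.002 ± 0.05 (SE, edgeR adjusted p = 4.14e-14), beside the rise of its exchange factor gene Sil1. Of 22 cytosolic heat shock genes 9 rose and 3 fell (1 without either JQ1 library), namely Chordc1 (-0.26), Ahsa1 (-0.12) and Hsf1 (-0.16). Ahsa1 did not pass without either JQ1 library (edgeR adjusted p = 0.202 and 0.0807) and Hsf1 without the second DMSO library or either JQ1 library (0.141, 0.161 and 0.13). The inducible genes Hspa1a and Hspa1b rose by 2.14 and 1.90, but they are near-identical and their reads could be shared. Hspa8, the constitutive member, went from 475 and 458 to 694 and 662 CPM.

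Of 38 autophagy genes 20 rose and 3 fell (median 0.23), with 5 falls without the first DMSO library and 1 without the first JQ1 library. The fallers were Tfeb (-0.30), which switches on lysosomal and autophagy genes, Atg14 (-0.37) and Atg7 (-0.26). Atg14 did not pass without the second DMSO library or either JQ1 library (edgeR adjusted p = 0.093, 0.0623 and 0.107) and Atg7 without the first JQ1 library (0.203). In DESeq2 none of these 3 falls passed (adjusted p = 0.0541 for Tfeb, 0.161 for Atg14 and 0.132 for Atg7). The cargo receptor gene Sqstm1 went from 92.3 and 95.1 to 195 and 196 CPM, a log2 change of 1.06. Atg12, which joins the conjugation system of the autophagosome, and the starting kinase gene Ulk1 rose by 1.18 and 0.92. Of 16 subunits of the proton pump that acidifies lysosomes 8 rose, Atp6v0a2 (0.54) and Atp6v0c (0.47) among them. Lysosomal enzymes did not rise as a list, with 8 up (5 without the first JQ1 library) and 17 down among 41 (median -0.12). Gusb, Ctss and Gaa fell by 0.80, 0.40 and 0.72.

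Amino acid stress and polyamine genes rose in part. Of 20 targets of the stress factor ATF4 10 rose and 3 fell (median 0.30). Sesn2, an inhibitor of mTORC1, and Atf5 rose by 1.16 and 1.24, and Atf4 itself went from 241 and 249 to 335 and 318 CPM. The fallers were the arginine transporter gene Slc7a1 (-0.51), Aldh18a1 (-0.39) and Shmt2 (-0.22). Of 10 polyamine genes 7 rose and 1 fell (2 without the second DMSO library). Those that rose include Sat1 (1.10), which acetylates polyamines for export, Oaz2 (0.93), an antizyme, and Azin1 (0.78), which inhibits antizymes. The spermidine synthase gene Srm fell, from 368 and 330.2 to 239.7 and 243 CPM.

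Protein synthesis genes moved by small amounts that differed between compartments. Of 83 cytosolic ribosomal protein genes 42 rose, with a median log2 change of only 0.14. Rplp0 went from 986 and 926 to 1217 and 1124 CPM. The faller was Rpl3l (-2.38), a variant known from muscle. Without the first JQ1 library 18 rose, and without the first DMSO library 3 fell. Of 77 mitochondrial ribosomal protein genes 32 fell and 6 rose (median -0.14). Mrpl19 went from 87.4 and 85.3 to 48.7 and 51.1 CPM. Mrps7 went from 75.1 and 78.9 to 56.02 and 58.7 CPM. Both JQ1 libraries were lower for these genes.

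Of 75 oxidative phosphorylation genes of the nucleus 25 rose and Ndufa13 fell (-0.16), with a median of 0.091. The fall of Ndufa13 did not pass in line 1.1 alone (edgeR adjusted p = 0.0563) or in DESeq2 (adjusted p = 0.17). Ndufa13 did not pass without the second DMSO library or either JQ1 library (edgeR adjusted p = 0.152, 0.106 and 0.174). Of 21 mitochondrially encoded genes 10 rose and none fell (median 0.11). These shifts are close to the spread of the replicates: the log2 ratio of the second to the first DMSO library had a median of -0.076 over the oxidative phosphorylation genes and -0.062 over the cytosolic ribosomal protein genes. Without the first JQ1 library 9 oxidative phosphorylation genes rose, without the second 14 and without the second DMSO library 15, and 11 rose with library totals as the scale. Of the mitochondrially encoded genes 4 rose without the second JQ1 library, 6 without the first DMSO library and 4 with library totals.

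Of 23 cytosolic tRNA synthetases 9 fell, among them Iars (-0.25), Mars (-0.27) and Tars (-0.29), and the scaffold gene Aimp2 rose (0.34). Translation initiation factors gave 9 rises and 7 falls (11 without the second DMSO library) among 43. Eif1, which helps find the start codon, went from 265 and 239 to 459 and 428 CPM, and the helicase gene Eif4a1 rose by 0.44, while the scaffold gene Eif4g1 fell by 0.31. Ribosome biogenesis genes gave 21 falls and 12 rises among 61, with 6 rises without the second JQ1 library, 7 without the first JQ1 or the second DMSO library and 6 with library totals. The RNA polymerase I subunit gene Polr1b fell by 0.47.

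Cell death genes moved in both directions, among the death-promoting BH3-only genes and among the protective genes. Bcl2l11, which encodes the death-promoting protein BIM, was at 40.2 and 40.8 CPM in DMSO and 136 and 129 CPM in JQ1, a log2 change of 1.71 ± 0.061 (SE, edgeR adjusted p = 9.20e-17). Pmaip1 and Bbc3, which encode NOXA and PUMA of the same class, rose by 0.67 and 0.35, while Bmf, also of this class, fell by 0.86 and the pore-forming effector gene Bak1 by 0.61. Among the protective genes Mcl1 rose, from 261 and 248 to 317 and 303 CPM, and Bcl2l2 fell by 2.29. Bbc3 did not pass without the first DMSO library or the first JQ1 library (edgeR adjusted p = 0.275 and 0.179). Bcl2 was at 17.7 and 17.98 CPM in DMSO and 13.8 and 14.2 CPM in JQ1, a log2 change of -0.35 ± 0.11 (SE, edgeR adjusted p = 0.0088), which did not pass without the first JQ1 library (adjusted p = 0.0681). In all, 4 of 14 BCL2 family genes rose and 6 fell, and 3 fell without the first JQ1 library.

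Mitosis genes gave 19 falls and 6 rises among 42 (median -0.062), and the mitotic kinase gene Plk1 went from 172 and 180.4 to 116 and 113 CPM. Of 20 genes of the G1 phase 5 rose (3 without the first JQ1 library) and 6 fell. Cdk6, a kinase of G1, went from 26.7 and 26.2 to 12.6 and 13.2 CPM, with log2 change -1.04. Cyclin D1 (Ccnd1) fell by 0.40. The risers were E2f5 (0.87), the CDK inhibitor gene Cdkn2d (0.47), the cyclin E genes Ccne2 (0.40) and Ccne1 (0.20), and E2f1 (0.20). Ccne1 did not pass without the second DMSO library or the first JQ1 library (edgeR adjusted p = 0.062 and 0.0976) and E2f1 without the first DMSO library or the first JQ1 library (0.18 and 0.129).

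**Figure D3:**
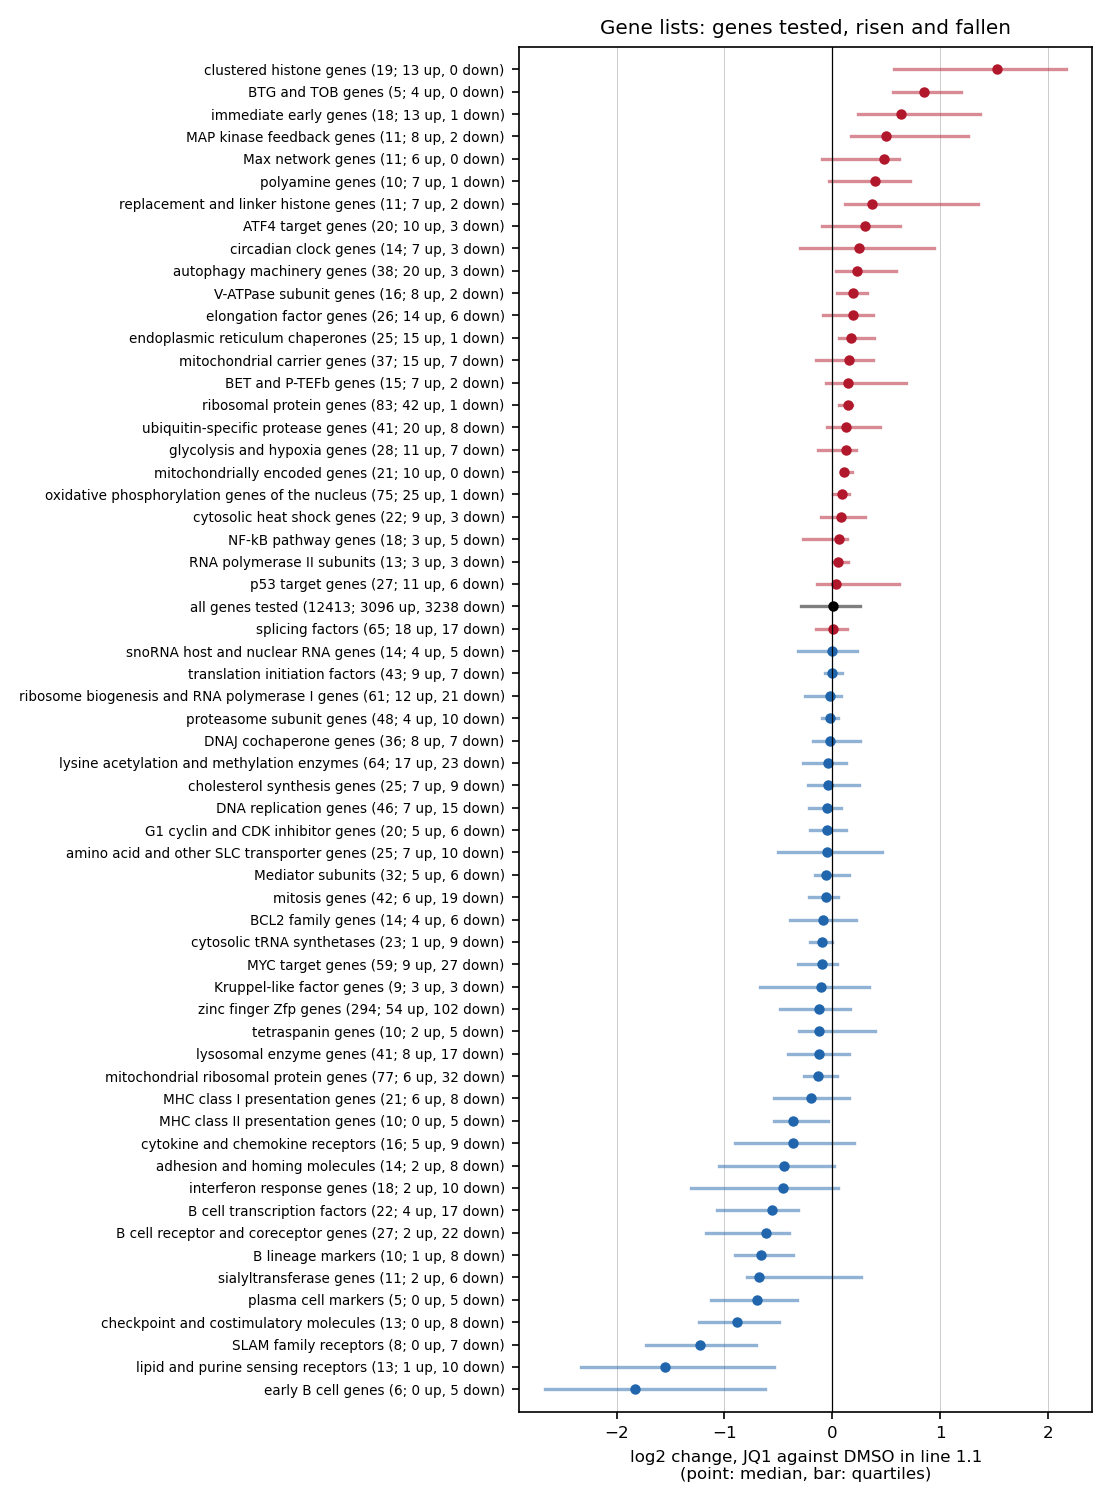
Each row is a gene list with the number of genes tested, risen and fallen in line 1.1; the point is the median log2 change and the bar the quartiles of its tested genes. Lists with at least 5 genes tested are drawn. Early B cell genes lie lowest at -1.83, clustered histone genes highest at 1.53, and all genes tested at 0.0078.

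Other regulators moved by member. Splicing factors gave 18 rises and 17 falls among 65, with Srsf2 going from 733 and 669 to 1199 and 1126 CPM and Hnrnpd from 494 and 462 to 303 and 308 CPM. Chromatin acetylation and methylation enzymes gave 17 rises and 23 falls among 64, with the deacetylase gene Sirt1 up by 1.11 and Hdac7 down by 1.22. Kruppel-like factors gave 3 of each direction among 9: Klf11 (1.11), Klf16 (0.40) and Klf9 (0.34) rose, and Klf3 (-1.13), Klf2 (-1.01) and Klf13 (-0.39) fell. Klf9 did not pass without the second JQ1 library (edgeR adjusted p = 0.0637). Clock genes gave 7 rises, Cry2 (0.97) and Tef (0.90) among them, and 3 falls of 14 tested, namely Nr1d1 (-0.83), Bhlhe41 (-0.41) and Arntl (-0.36). Zinc finger genes of the Zfp series leaned down, with 102 falls and 54 rises among 294 (median -0.12). Ubiquitin-specific proteases leaned up, with 20 rises and 8 falls (5 without the first JQ1 library) among 41 (median 0.13), and Usp20 rose by 1.43. Of the nuclear noncoding RNAs, Neat1, the scaffold of paraspeckles, went from 30.2 and 34.99 to 11.1 and 10.5 CPM. Malat1 went from 79.1 and 107 to 147 and 136 CPM, the opposite direction.

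NF-kB pathway genes, which carry signals of B cell activation, gave 3 rises and 5 falls among 18, and 5 rises and 3 falls without the second DMSO library. Nfkb1, a subunit of the factor, and the ubiquitin ligase gene Birc3 fell by 0.64 and 0.61, the inhibitor genes Nfkbie and Nfkbid by 0.59 and 0.32, and Traf3 by 0.31. The kinase gene Map3k14, Traf2 and the subunit gene Rel rose by 0.42, 0.33 and 0.31. In DESeq2 Map3k14, Nfkbie, Nfkbid and Rel did not pass (adjusted p = 0.0627, 0.136, 0.159 and 0.172). With library totals as the scale Rel did not pass either (edgeR adjusted p = 0.0588). Nfkbie did not pass without the second DMSO library or the second JQ1 library (edgeR adjusted p = 0.251 and 0.221), Nfkbid without the second DMSO library or the first JQ1 library (0.0696 and 0.244) and Rel without the first DMSO library or either JQ1 library (0.325, 0.0984 and 0.0884). Cholesterol synthesis genes gave 7 rises and 9 falls among 25, with 5 falls without the first DMSO library and 3 without the first JQ1 library. Insig1, which restrains the pathway, and the isomerase gene Idi1 rose by 0.67 and 0.62.

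Glycolysis and hypoxia genes depended on the DMSO libraries. They gave 11 rises and 7 falls among 28, but the log2 ratio of the second to the first DMSO library had a median of 0.22 over the list. Without the first DMSO library 5 genes rose and without the second 17. The glucose transporter gene Slc2a3 fell, from 32.3 and 29.6 to 16.9 and 20.5 CPM. Proteasome subunits gave 4 rises, Psmd5, Psmd2, Psmb4 and Psmb3, all under 0.25 on the log2 scale, and 10 falls among 48. Their rises numbered 12 and 0 without the first and the second DMSO library and 1 and 2 without the first and the second JQ1 library, and their falls 16 without the second DMSO library and 5 and 4 without the first and the second JQ1 library.

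Across gene classes, the shares of rises and falls differed with the level and the kind of gene. Of 285 genes at 500 CPM or more, 49.8% rose and 18.9% fell. Of 2471 genes at 5 to 20 CPM, 20.6% rose and 30.3% fell. Abundant genes have smaller errors, and a change of a given size passes more easily among them.

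Of 227 lincRNA genes 10.1% rose and 25.1% fell, with 14.1% lower by 2-fold or more. The 231 antisense genes gave 7.79% and 21.2%, although reads of an antisense gene and its partner cannot be told apart without a stated strand setting. Processed pseudogenes ran the other way, with 18.2% of 929 higher and 3.55% lower. These are copies of spliced mRNAs and could take reads of their parent genes. Protein-coding genes stood at 27.1% and 28.9% of 10287. These class shares were not taken at like levels. Of all genes at 1 to 5 CPM 12.8% fell at least 2-fold, against 0.972% of those at 100 to 500 CPM. By gene length the medians stayed near 0: the median log2 change was 0.029 for protein-coding genes under 5 kb and -0.020 for those over 100 kb. Of 211 genes with 1 exon 11.4% rose at least 2-fold. Clustered histones were a part of them, with 8 of 16, and of the other 195 8.21% rose and 8.72% fell at least 2-fold.

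Promoters of risers and fallers differed in their CpG content and motifs. A RefSeq promoter of 300 bases, 250 before and 50 after the start, was matched to 7919 of the 12413 genes tested. CpG dinucleotides had a median of 22 per promoter over all matched genes, 21 over 305 that rose at least 2-fold and 11 over 473 that fell at least 2-fold. Since level and CpG content could move together, the shares were taken for the 4920 genes averaging 20 CPM or more. There, 56.7% of 104 genes with 0 to 4 CpG fell and 20.2% rose. Of 1443 genes with 30 or more CpG, 25.02% fell and 37.6% rose. The median log2 change went from -0.29 to 0.051 between these classes.

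The CCAAT box was present in 39.4% of promoters of genes at 20 CPM or more, in 61.8% of 55 that rose at least 2-fold and in 19.4% of 103 that fell at least 2-fold. For the GC box these shares were 70.6%, 83.6% and 46.6%. The E-box, the motif that MYC and MAX bind, was in 11.9% of all, 1.82% of the risers (1 promoter of 55) and 7.77% of the fallers. These shares depended on the level of the genes. Over matched genes of any level, CCAAT was in 40.3% of all, 50.5% of 305 risers and 31.7% of 473 fallers, and the GC box in 67.03%, 69.5% and 46.3%. The GC box was in 56.8% of 74 genes that rose at least 4-fold, fewer than over all matched genes. The E-box was in 11% of all, 7.87% of the risers and 7.82% of the fallers, with the shares of risers and fallers close to each other. Over all 32851 promoters of the table, CCAAT was in 37.4%, the GC box in 35.7% and the E-box in 7.15%. Among 15 clustered histone genes with a promoter, 73.3% held CCAAT and 53.3% a TATA box core, against 6.02% of all matched genes. GC-rich motifs and CpG content are not independent, and no test was made of these shares.

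**Figure D4:**
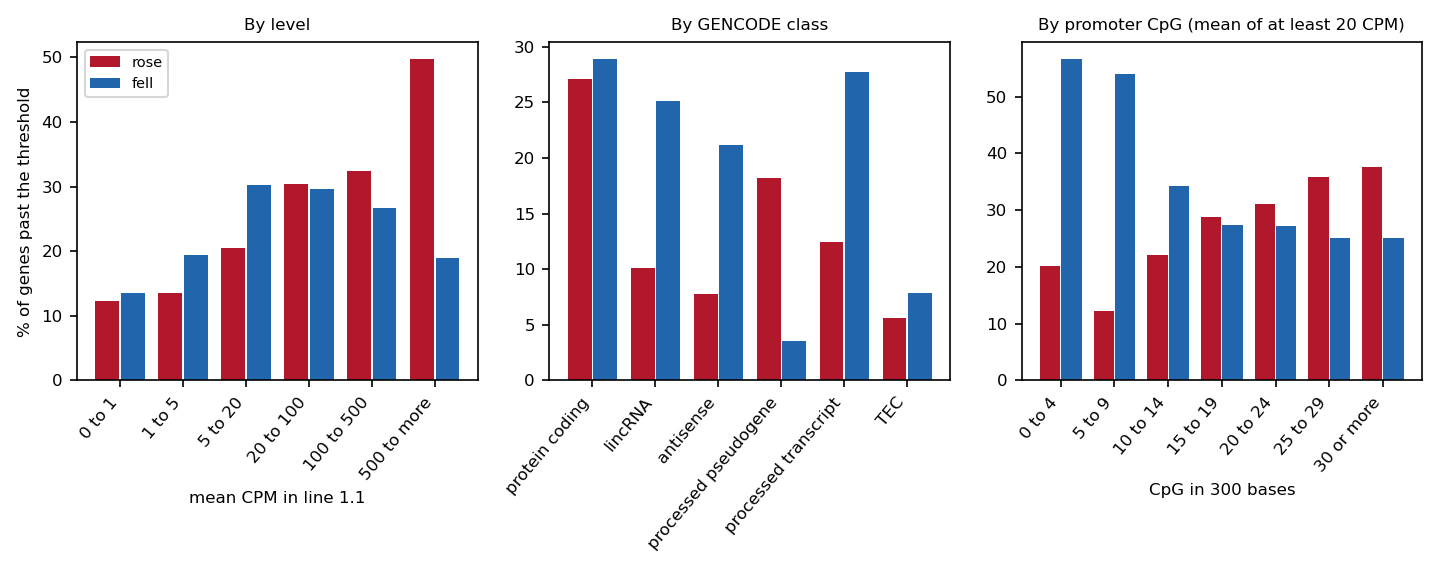
Bars give the percentage of genes tested in line 1.1 that rose or fell past the threshold, by mean CPM, by GENCODE gene class (classes with at least 100 genes) and, for genes averaging 20 CPM or more, by the number of CpG dinucleotides in 300 bases of promoter. At 500 CPM or more 49.8% rose and 18.9% fell, and fallers exceed 50% in both classes with under 10 CpG.

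Neighbouring genes moved in the same direction about as often as not. Among adjacent protein-coding genes less than 1 kb apart that are transcribed away from each other and both passed the test, 68 of 137 pairs moved in the same direction, and over all arrangements and distances the share lay between 48.2% and 58.2%. The pair with the largest joint fall was Rag1 and Rag2, which lie 5752 bases apart on chromosome 2. The pair with the largest joint rise was Fzd5 (3.10) and Ccnyl1 (2.32), 4913 bases apart on chromosome 1. Il2ra and Il15ra, 12096 bases apart on chromosome 2, fell by 3.04 and 2.25. These pairs were picked for their changes.

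Most of the response of line 1.1 was also seen in line 1.2, which was treated and sequenced in the same series. Of the 6334 genes that passed in line 1.1, 4985 also passed in line 1.2 in the same direction, which is 78.7% of them and 81.2% of the 6136 that passed in line 1.2, and 145 had the opposite sign there. Of the 1211 that changed at least 2-fold in line 1.1, 1048 passed in line 1.2 in the same direction. The difference between the lines in their response passed the test for 14 genes (0.113%), with 1000 at an unadjusted p under 0.05 and 8 in DESeq2. Plxnc1 (chr10:94790866-94944835), a semaphorin receptor gene, went from 156 and 161 to 453 and 446 CPM in line 1.1 and from 5.96 and 7.04 to 4.84 and 5.41 CPM in line 1.2, where it was low throughout. The difference of the log2 effects was 1.85 (edgeR adjusted p = 8.39e-07). Tspoap1 rose in both lines and more in line 1.1, by 5.03 against 3.99. Scml4, a Polycomb-related gene, fell in line 1.2, from 9.12 and 7.62 to 2.20 and 2.13 CPM, and did not pass in line 1.1, from 8.89 and 9.66 to 8.10 and 7.57 CPM, with log2 changes of -1.94 in line 1.2 and -0.24 in line 1.1. Iglv1, an immunoglobulin lambda variable gene, fell by 0.80 in line 1.1 against a change of -1.43 in line 1.2, and immunoglobulin V genes may share reads. The hypoxia gene Ankrd37 fell more in line 1.1 (-1.95 against -0.82), where its replicates differed, from 38.7 and 57.2 to 8.76 and 15.95 CPM.

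The number of genes that differ between the lines depended on the libraries. It was 459 without the first DMSO library of line 1.1 and 44 without the second, 8 without its first JQ1 library, 8 without the first DMSO library of line 1.2 and 9 without the second JQ1 library of line 1.2. The DMSO libraries of line 1.1 differed in Gm42418, a gene model that overlaps ribosomal RNA sequence, which was at 361 and 977 CPM in DMSO and 475 and 493 CPM in JQ1, so that its groups overlap. Its effect differed between the lines by -2.91, which did not pass in DESeq2 (adjusted p = 0.367), while its change within line 1.1 did not pass (edgeR adjusted p = 0.148). That change turned with the library left out: it passed as a fall without the first DMSO library (-1.02, edgeR adjusted p = 3.57e-07) and as a rise without the second (0.42, edgeR adjusted p = 0.0331). With a replicate block in line 1.1 alone it passed as a fall (-0.31, edgeR adjusted p = 2.35e-08), and without a filter on low counts it also did (-0.46, edgeR adjusted p = 5.21e-25). Plxnc1, Scml4 and Tspoap1 passed again without each of the 8 libraries in turn, whereas Iglv1 passed in 2 and Ankrd37 in 4 of those 8 cases. With Gm42418 as a covariate 8 genes differed, and of the 14 only Plxnc1 and Adam19 were among them.

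**Figure D5:**
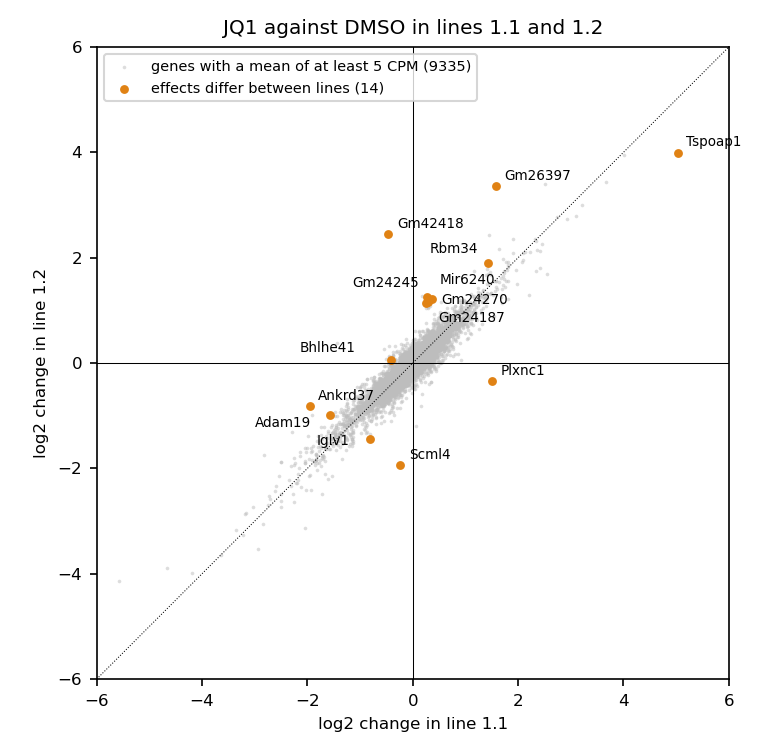
Each grey point is a gene averaging 5 CPM or more in line 1.1, with its log2 change in line 1.1 and in line 1.2; the dotted line marks equal change. The 14 coloured genes, at any level, are those whose change differed between the lines, and Plxnc1 at 1.505 against -0.35 lies far from the line.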

How the data were processed

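The deposited table holds raw read counts per gene, with 1 column for each of the 8 libraries and the summary lines that HTSeq writes at the end. Per the submitters' processing notes, FastQC, cutadapt 1.7, TopHat, Bowtie2, HTSeq and limma were used with GRCm38 (mm10). Strand setting and annotation release: not given in the sources used here. These summary lines entered neither the library sizes nor any test. Reads that HTSeq placed in no gene made up 12.6% and 13.1% of all reads in the DMSO libraries of line 1.1 and 14.2% and 14.1% in its JQ1 libraries. Symbols, positions and gene classes come from GENCODE M21, which named 42548 of the 43629 gene identifiers.

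Groups were taken from the sample descriptions. Genes were kept by edgeR's filterByExpr (minimum count 10, minimum total 15), scaled by TMM and tested with edgeR 4.0.16 (R 4.3.3) in quasi-likelihood fits of 4 group means over all 8 libraries, which leaves 4 residual degrees of freedom. P-values were adjusted by Benjamini-Hochberg over all genes tested (threshold 0.05). CPM are counts scaled to the TMM library size. The difference between the lines was tested in the same fit. Other scalings, filters and tests (limma 3.58.1, DESeq2 1.42.0), left-out libraries, a block and a covariate were tried as alternatives, and the statistical steps were tested on simulated data.

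The text names the 12 strongest risers and the 12 strongest fallers averaging 5 CPM or more, with a gene symbol that is not a model name. The 6 genes with the largest gain and the 6 with the largest loss in CPM, up to 5 genes each way of the difference between the lines, up to 4 members of each list by p-value and a few genes of interest in this setting were added. A few genes that this rule or the lists hold are not reported here by name. Members and gene lists were chosen with earlier results of these data known. The labels do not say whether same-numbered libraries were prepared together, and the main test did not pair them. The correlations of deviations within same-numbered DMSO and JQ1 libraries were 0.053 in line 1.1 and 0.041 in line 1.2. With 2 libraries per group, such values cannot decide whether the libraries were paired.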

Additional observations from a re-analysis of the deposited data

Results flagged for a closer look

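The response differed between the lines, by a test of the difference itself, for 14 genes. The JQ1 effect was lower in line 1.1 than in line 1.2, by the following differences of log2 changes, for the ribosomal RNA gene model Gm42418 (-2.91), the small RNA model Gm26397 (-1.79), the hypoxia gene Ankrd37 (-1.13), the microRNA model Mir6240 (-0.99) and the small RNA models Gm24187 (-0.88), Gm24270 (-0.87) and Gm24245 (-0.85). It was also lower for the metalloprotease gene Adam19 (-0.59), the RNA-binding protein gene Rbm34 (-0.47) and the clock gene Bhlhe41 (-0.46). Lower means a more negative or less positive log2 change in line 1.1. Adam19 fell more in line 1.1 (-1.57 against -0.99), whereas Rbm34 rose less there (1.42 against 1.89). Bhlhe41 fell in line 1.1 (-0.41) and did not pass in line 1.2 (0.049). The JQ1 effect was higher in line 1.1 for Tspoap1 (1.04), Scml4 (1.71) and the semaphorin receptor gene Plxnc1 (1.85). It was also higher for the lambda variable gene Iglv1 (0.63), which fell less in line 1.1. The 14 genes need not be independent of each other. Gm26397 (chr8:126944847-126944980) lies near Rbm34 (chr8:126947172-126971071) and overlaps the more abundant Tomm20 on the same strand. In DESeq2 the differences of Mir6240, Gm24187, Gm24270 and Gm24245 did not pass (adjusted p = 0.9998 for each). Adam19, Plxnc1, Rbm34, Scml4, Tspoap1, Gm26397 and Gm42418 passed again without each of the 8 libraries in turn.

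Reads assigned to no gene were a larger share with JQ1 than with DMSO in line 1.1, at 14.2% and 14.1% against 12.6% and 13.1%. In line 1.2 they were 14% and 14.4% against 12.3% and 13.1%. The files do not say where these reads lie, and the difference was not tested.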

How the results depend on the processing

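Of the 6334 genes that passed in line 1.1, none passed in the opposite direction under any other scaling, filter, test or left-out library. Higher and lower genes numbered 2661 and 3605 with library totals as the scale, which moved the share of higher calls from 48.9% to 42.5%, and 2226 and 2356 in DESeq2. Tested against a fold change of 1.5 they numbered 471 and 713. Leaving out 1 library gave 2434 to 3081 higher and 2505 to 3213 lower. With the replicate number as a block they were 3124 and 3237, and 2972 and 3206 in line 1.1 alone, and 26 genes differed between the lines. The number that differed was 8 in DESeq2, 80 without a filter on low counts, 8 at 5 CPM or more, 8 with Gm42418 as a covariate, 2 against a fold of 1.5, 7 at an adjusted p of 0.01 and 8 to 459 with 1 library left out. The cause was not tested. Where 1 library of a group is left out, the lone library is assumed to vary like the others.

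Of 62 list medians 51 kept their sign under every alternative. Those of DNAJ cochaperones, G1 genes, Kruppel-like factors, NF-kB genes, myeloid markers, p53 targets, proteasome subunits, ribosome biogenesis genes, snoRNA hosts, splicing factors and translation initiation factors did not. Beyond the cases given above, other list counts varied more than 1.5-fold when 1 library of line 1.1 was left out. Among these were splicing factors and mitochondrial ribosomal protein genes in both directions, and falls of cytosolic tRNA synthetases, chromatin enzymes and ribosome biogenesis genes. Rises of MYC targets and of MHC class I genes did so too. In DESeq2 32 named genes lost the call. Beyond those given above, they were Ahsa1, Bbc3, Ccne1, Cd74, E2f1, Fcgr3, Hsf1, Ifnar1, Il17ra, Irf9, Klf9, Psmb3, Psmd5, St3gal3, Gm24245 and Gm24270. In line 1.1 alone Ahsa1, Cd74 and Psmb3 did not pass either (edgeR adjusted p = 0.0632, 0.0537 and 0.0643). Of 268 named genes that passed, 40 lost the call under an alternative other than the fold of 1.5 or the adjusted p of 0.01, and none changed sign. Named genes that did not pass changed sign with 1 library left out: Brd3 (from -0.12 to 0.023), Slamf1 (-0.51 to 0.23), Ms4a1 (-0.28 to 0.40), Sox4 (-0.12 to 0.30) and Gm42418 (-1.02 to 0.42), which by construction was at 2.06e-05 with its own level as a covariate, where its difference between the lines was 1.459e-05. Medians of gene classes with a library left out, and single genes of the difference between the lines under the alternatives, were chosen after seeing the data. About 0.25 CPM corresponds to 3 reads, and changes of genes near that level are limited by depth.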
